A study of Mus musculus with 8 samples.

Results

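Circular RNAs (circles) are loops of 1 or more exons whose last splice donor has been joined backwards to the first acceptor, and those made by ubiquitin enzyme and ligase genes are described here. Host genes were taken by their symbols, those that begin with Ube, Usp, Ubr, Trim, Cul, Herc or Rnf followed by a digit, or with Fbx, Hectd or Nedd4. The name pattern held 902 of the 27391 circles in the table and 173 of its 6492 host genes. Whole hearts of male wild-type (WT) mice were compared 8 weeks after either transverse aortic constriction (TAC), an operation that narrows the aorta so that the left ventricle ejects against raised pressure, or a sham operation. There were 4 libraries a group, each from its own mouse, and neither group carried a transgene or an agent. The comparison asks which circles differ in a heart under lasting pressure overload.

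Ubiquitin is a small protein that cells attach to other proteins, often to mark them for the proteasome. An activating enzyme (E1) passes it to a conjugating enzyme (E2), a ligase (E3) chooses the target, and deubiquitinases remove it again. In heart muscle this system turns over sarcomere proteins, and the muscle ligases Trim63 (MuRF1) and Fbxo32 (atrogin-1) are known for their part in loss of muscle mass. A circle carries exons of such a gene but says nothing by itself about the enzyme, and linear transcripts were not analysed here.

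By class, 41 circles came from 20 E2 hosts, 590 from 114 E3 hosts and 260 from 37 deubiquitinase hosts of the Usp family. The remaining 11 circles belonged to Usp6nl and Hectd2os, which match the pattern by name and are not ubiquitin enzymes. Of the 902 circles, 874 were typed as exonic (circRNA) and 28 as intronic (ciRNA). E2 hosts gave few circles each, 2.05 per host on average, against 5.18 for E3 hosts and 7.03 for deubiquitinases. The average over all hosts of the table was 4.22 circles. A single circle was listed for 12 of the 20 E2 hosts, 36 of the 114 E3 hosts and 6 of the 37 deubiquitinase hosts. Among the ligases, circle number differed by family. The 6 Ubr hosts, which recognise destabilising protein ends, gave 14.5 circles each, and the 15 HECT hosts, whose catalytic domain takes ubiquitin onto itself before the target, gave 11.5. The 40 Rnf hosts gave 3.30, the 30 F-box hosts 3.23, the 15 Trim hosts 3.67 and the 7 cullin hosts 5.0 circles each. Hosts with the most circles were Usp13 with 29, Nedd4 and Hectd4 with 27 each, Ubr1 with 22, and Ubr3 and Usp34 with 21 each.

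Reads spanning a closing junction (back-spliced reads) numbered 254236 in the 8 libraries, and 9759 of them came from the 902 circles. Library totals ran from 1119 to 100142 reads, and 2 libraries stood apart by depth. Sham replicate 2 held 3963 reads, of which 163 were from these circles, and TAC replicate 2 held 1119 reads, of which 46 were. The deposited values are reads divided by 1 size factor per library, called normalised reads below. One read was therefore worth 4.54 normalised reads in sham replicate 2 and 5.77 in TAC replicate 2, against 0.195 to 1.03 in the other 6 libraries, so that a 0 in either shallow library is a weak measurement. In the shares of short and of long circles these 2 libraries were nearer to the other group. Circles under 300 nt held 32.9% of all reads in TAC replicate 2 against 7.25% to 9.85% in the other TAC libraries. Circles of 1000 nt or more held 13.7% in sham replicate 2 against 2.11% to 2.75% in the other sham libraries. Whether the labels of these 2 libraries were exchanged was not tested, and an exchange would change each value over all 8 libraries below. Values over the 6 deep libraries stand beside the main results. A sum of normalised reads also follows the library's total of normalised reads, which a share does not. That total was lowest in TAC replicate 2 and higher in each deep TAC library than in any sham library.

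Shown here are the sequences across the closing junction of 10 circles that the results below describe, chosen for their reads or because 2 of them share an end; that of Ube2d2a is not printed. Lower case marks the last bases of the last exon and capitals the first bases of the first exon, to which they are joined only in the circle. All are 5′ to 3′ on the strand of the gene, from GENCODE M21 transcripts, and no linear transcript of that annotation held any of the junctions.
Rnf169 exons 2 to 4, chr7:99935162-99955540, minus strand: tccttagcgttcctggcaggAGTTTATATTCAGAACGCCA
Ube3a exons 2 to 4, chr7:59240967-59247217, plus strand: tgaagctagccgaatGTTAAAAAATCTCTC
Fbxw4 exons 2 to 5, chr19:45630865-45640521, minus strand: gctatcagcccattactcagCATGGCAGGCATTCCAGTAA
Fbxw4 exons 2 to 4, chr19:45635735-45640521, minus strand: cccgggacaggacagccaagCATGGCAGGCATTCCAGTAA
Usp3 exons 2 to 7, chr9:66540062-66566903, minus strand: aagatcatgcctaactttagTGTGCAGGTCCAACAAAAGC
Ube2k exons 2 to 5, chr5:65565989-65594548, plus strand: atgggttttgataggACGAGCAAAAATCAA
Rnf214 exons 4 to 6, chr9:45890804-45898491, minus strand: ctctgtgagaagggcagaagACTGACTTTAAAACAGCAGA
Rnf214 exons 3 to 6, chr9:45890804-45900256, minus strand: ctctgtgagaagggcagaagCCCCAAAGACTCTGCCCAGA
Trim24 exons 6 to 7, chr6:37927526-37931500, plus strand: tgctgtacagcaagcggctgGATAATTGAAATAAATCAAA
Trim24 exons 2 to 7, chr6:37903533-37931500, plus strand: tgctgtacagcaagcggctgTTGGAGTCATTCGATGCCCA
The 2 Fbxw4 junctions differ before the joint and share the start of exon 2. The Rnf214 and Trim24 pairs share the end of the last exon and differ after the joint. Coordinates are in mm10.

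A short circle, that of Ube2g2, an E2 that works in the disposal of misfolded proteins of the endoplasmic reticulum, is printed whole because it was read in every sham library and in no TAC library. It joins exons 2 (lower case) and 3 (capitals), 82 nt in all and coding throughout, at chr10:77630726-77630894 on the plus strand.
Ube2g2 circle: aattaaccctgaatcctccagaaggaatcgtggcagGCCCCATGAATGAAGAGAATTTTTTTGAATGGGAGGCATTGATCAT
It spans codons 15 to 42 of the 165 of Ube2g2, and the bases beside its junction also occur in a transcript of Gm49325.

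In build, the circles of ubiquitin genes were close to those of the table as a whole. Of the 874 whose ends matched annotated exon borders, the median spliced length was 503.5 nt against 503 nt over all circles, and 88.6% lay wholly in coding sequence against 88.3%. E2 circles were shorter, with a median of 352 nt, against 516 nt for E3 and 531.5 nt for deubiquitinase circles. Exon 2, the first exon with an acceptor splice site, opened 51.3% of E2 circles, 39.6% of F-box circles and 40.0% of Rnf circles, against 26.3% of all the ubiquitin gene circles and 23.1% of all circles. HECT and Ubr circles began there in 13.3% and 11.8% of cases. Median GC content was 46.3% against 48.3% over all circles, with 42.6% for E2, 47.3% for E3 and 45.1% for deubiquitinases. The introns beside the circles were shorter than in the table, with medians of 4321 nt upstream and 3006 nt downstream against 5311 and 4163 nt. Among the wholly coding circles, 37.3% had a length divisible by 3 against 38.7%. Most circles were rare, as elsewhere in the table: 418 (46.3%) rested on a single read and 553 (61.3%) were seen in 1 library. In all 8 libraries, 5 were read, those of Rnf169, Ube3a, Rnf114, Fbxw8 and Trim33.

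Circles of E2 enzymes made up a smaller share of the reads in TAC than in sham hearts, and this rested on 1 host, Ube2d2a. In sham replicates 1 to 4 they held 0.348%, 0.505%, 0.419% and 0.717% of the library's back-spliced reads. In TAC replicates 1 to 4 they held 0.220%, 0.0894%, 0.233% and 0.263%, so that the groups did not overlap. As sums of normalised reads the groups did overlap, at 53.8, 90.9, 62.1 and 140 in sham and 54.3, 5.77, 50.4 and 60.4 in TAC. The means were 86.6 ± 38.8 (SD, n = 4) and 42.7 ± 25 (SD, n = 4), a log2 ratio of -1.02, and of -0.63 over the 6 deep libraries. Without Ube2d2a, left out after its values had been seen, the E2 sum was 28.9 ± 17.4 in sham and 32.2 ± 18.4 in TAC, a log2 ratio of 0.16. Over the 6 deep libraries that sum was 21.8 ± 12.5 in sham and 41.0 ± 6.48 in TAC (SD, n = 3 each), a log2 ratio of 0.91. As shares of the reads, the deep libraries without Ube2d2a overlapped, at 0.0727% to 0.182% in sham and 0.157% to 0.210% in TAC. No p-value is given for sums over the members. With 3 hosts holding 84.5% of the E2 sum, against 32.8% of the E3 and 42.3% of the deubiquitinase sum, the E2 class rested on fewer genes.

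**Figure D1:**
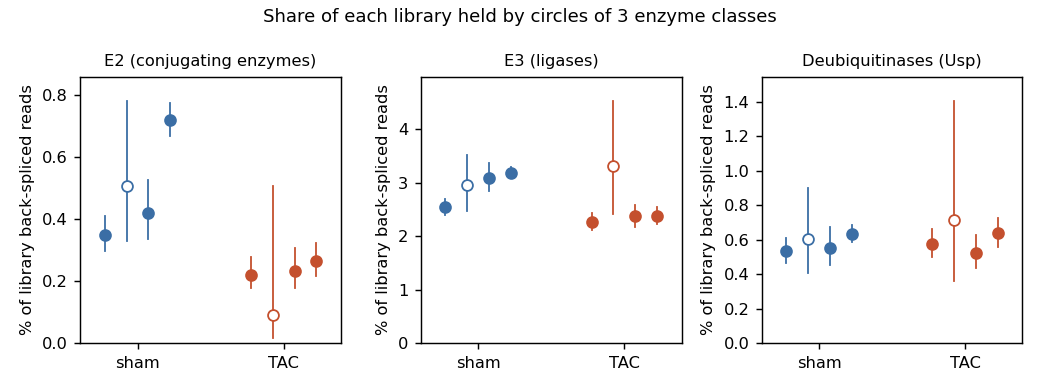
Share of each library's back-spliced reads (vertical axis, percent) held by circles of E2, E3 and deubiquitinase hosts, for 4 sham (blue) and 4 TAC (red) libraries; bars are 95% Wilson intervals, which cover counting error only, and open points mark the 2 libraries under 5000 reads. E2 shares were 0.348% to 0.717% in sham and 0.0894% to 0.263% in TAC, while over all 8 libraries E3 and deubiquitinase shares overlapped between the groups.

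E3 circles held 2.54%, 2.95%, 3.1% and 3.19% of the reads in the sham libraries and 2.27%, 3.31%, 2.37% and 2.38% in the TAC libraries. Their sums were 501 ± 97.9 (SD, n = 4) in sham and 458 ± 164 (SD, n = 4) in TAC, a log2 ratio of -0.13. Over the 6 deep libraries the E3 ratio of sums was 0.14, while the shares went the other way. Each deep TAC library (2.27% to 2.38%) lay below each deep sham library (2.54% to 3.19%). Without Ube3a, left out after its values had been seen, the deep shares overlapped, at 2.28% to 2.59% in sham and 2.22% to 2.34% in TAC. Deubiquitinase circles held 0.522% to 0.715% of the reads in every library, and their sums of 99.2 ± 20.6 and 112 ± 46.2 (SD, n = 4 each) gave a log2 ratio of 0.17, or 0.48 without the shallow libraries. Their shares in the deep libraries overlapped, at 0.532% to 0.634% in sham and 0.522% to 0.637% in TAC. In whole tissue, fewer cells of a type and less circular RNA per cell cannot be told apart in any of these values.

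Across the table, limma on log2(normalised reads + 0.195) tested circles above 0 in at least 4 of the 8 libraries and passed 0.0268% of them at an adjusted p under 0.05. It tested 123 circles of the ubiquitin hosts and passed 0. At an unadjusted p under 0.05 there were 10, against 4.07% of all circles tested. The median log2 fold change of the 123 was 0.02, against 0.15 for all circles tested, and without the shallow libraries 0.41 against 0.45. Of host sums, 97 were tested and 0 passed, against 0.0337% of all hosts, with 4 (Ube2d2a, Ube2g2, Ube3a and Usp14) at an unadjusted p under 0.05, against 3.03%. The count test of edgeR on the whole reads recovered from the values tested 26 of the circles and passed 1, that of Ube2d2a, where it passed 13.1% of all circles tested. It tested 44 hosts and passed 5, where it passed 8.24% of all hosts. Rnf214 was higher (3.33% of all hosts were called higher), and Ube2d2a, Usp14, Ube3a and Trim24 were lower (4.9% were called lower). DESeq2 passed the circle and the host sum of Ube2d2a (adjusted p = 0.0426 and 0.000291) and no other, against 0.084% of all circles and 0.647% of all hosts listed. With voom quality weights, added once the data had been seen, 8 of 26 circles and 10 of 44 hosts passed, against 32.9% and 20.6%.

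With the 2 shallow libraries left out, edgeR passed 11 of 44 circles, 5 higher and 6 lower, against 30.0% of all circles tested (16.4% higher and 13.6% lower). Of 50 hosts it passed 10, 4 higher and 6 lower, against 21.6% of all hosts (10.9% higher and 10.7% lower). By limma in these 6 libraries, 16 of 114 circles and 12 of 93 hosts passed, against 11.6% and 12.4%. With all 8 libraries, 5 of the 123 circles had groups that did not overlap, against 3.11% of all circles tested, and 2 of the 97 hosts (Ube2d2a and Ube2g2), against 3.24% of all hosts. Among the 6 deep libraries this held for 46 of the 123 circles and 30 of the 97 hosts, against 34.6% and 32.2%. The 5 circles, named after their values were seen, were the circles of Ube2d2a (exons 2 to 6), Rnf2 (2 to 4), Ube2g2 (2 to 3) and Ubr1 (29 to 31), all lower in TAC, and of Hectd4 (3 to 7), higher in TAC.

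Ube2d2a, an E2 that serves many RING ligases, gave the E2 circle with the most reads. Its circle of exons 2 to 6, 374 nt of coding sequence on chromosome 18, had 33.4, 40.9, 49.7 and 99.4 normalised reads in sham replicates 1 to 4 and 14.9, 0, 14.4 and 12.1 in TAC replicates 1 to 4. Every TAC library lay below every sham library. By edgeR the circle fell in TAC by 2.48 ± 0.83 on the log2 scale (SE, adjusted p = 0.0310), and by 2.30 without the shallow libraries (adjusted p = 0.00150). Leaving out any 1 of the 6 deep libraries lost the circle's call (adjusted p of 0.0718 to 0.270). By limma its log2 fold change was -3.42 ± 1.12 (SE, adjusted p = 0.834). The host sum fell by 2.62 ± 0.67 by edgeR (SE, adjusted p = 0.00424). That host call was lost (adjusted p of 0.0509 to 0.112) when sham replicate 4 or TAC replicate 1, 3 or 4 was left out. Bases beside the junction also occur in Gm9762 and AC141471.2, so reads of near-identical copies may be included.

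Ube2k, an E2 that builds ubiquitin chains read by the proteasome, was the other E2 host with an abundant circle. Its circle of exons 2 to 5, 406 nt, had 2.65, 31.8, 0.828 and 2.53 normalised reads in sham and 26.8, 0, 26.8 and 28.6 in TAC. The 3 deep TAC libraries lay far above the 3 deep sham libraries, while the shallow sham library was above all TAC libraries and the shallow TAC library below all sham libraries. With all libraries the edgeR log2 fold change was 2.03 ± 0.82 (SE, adjusted p = 0.0752), and over the 6 deep ones the circle rose by 3.41 ± 0.51 (SE, adjusted p = 0.000337). It also passed with only sham replicate 2 or only TAC replicate 2 left out (adjusted p = 0.00327 and 0.0168), and not without any other library. Gm42726 lies on the opposite strand at this circle, and the strand of the libraries is unknown here.

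The Ube2g2 circle had 3, 3, 7 and 21 reads in the sham libraries and 0 in each TAC library. Over the groups that is 34 of 162791 reads against 0 of 91445, which allows a share of up to 0.00328%, and on that limit of 3 reads over the group it was at least 6.37-fold lower in TAC. That bound covers counting error of the TAC reads only, and 21 of the 34 sham reads came from sham replicate 4. It was too rare for edgeR with all libraries, and limma gave an adjusted p of 0.834. Ube2q2 had the most circles of an E2 host, 7, with host sums of 5.31, 0, 0 and 11.7 in sham and 5.20, 0, 4.12 and 1.27 in TAC, which overlap. Of the other E2 hosts, 11 had under 10 reads each in the whole table.

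**Figure D2:**
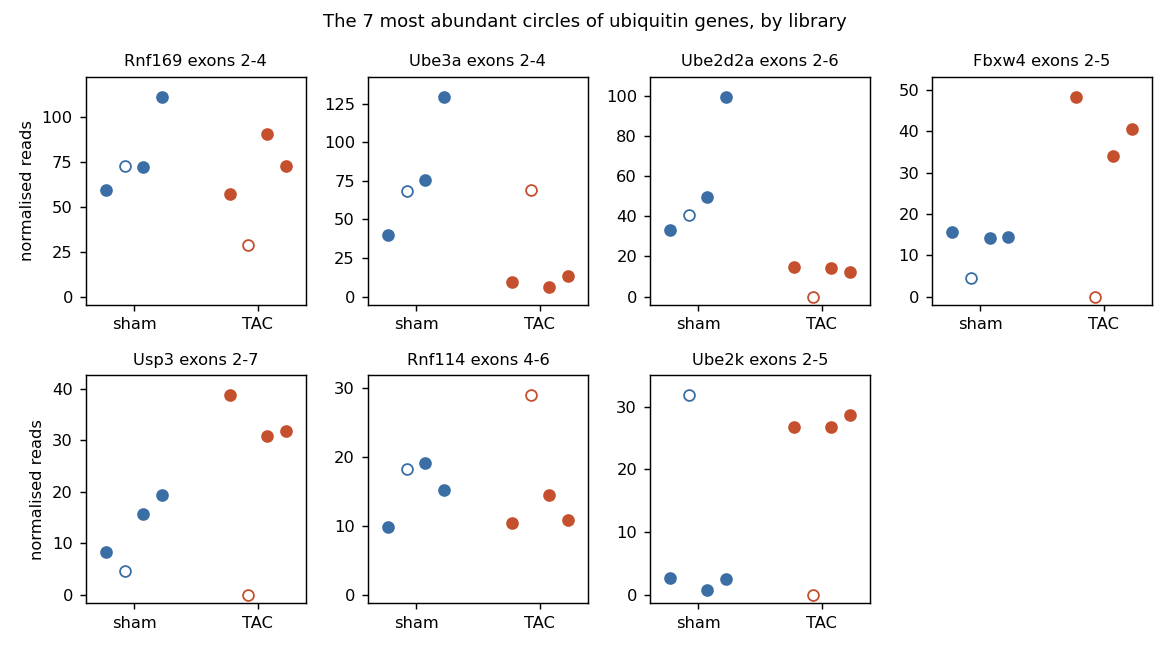
Normalised reads (vertical axis, a scale per panel from 0) of the 7 ubiquitin gene circles with the largest mean, in 4 sham (blue) and 4 TAC (red) libraries; open points mark the libraries under 5000 reads. Ube2d2a is lower in every TAC library (0 to 14.9 against 33.4 to 99.4), while the open TAC point of Ube3a and both open points of Ube2k are nearer to the opposite group's filled points.

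Of the HECT ligases, Ube3a (E6AP, the ligase lost in Angelman syndrome) gave nearly all its reads in 1 circle of exons 2 to 4, 232 nt long. It holds the start codon, with 65 coding and 167 untranslated bases, and reaches codon 22 of 870. Normalised reads were 39.8, 68.1, 75.4 and 129 in sham and 9.67, 69.3, 6.18 and 13.4 in TAC. The 3 deep TAC libraries were all below the sham libraries, and TAC replicate 2, with 12 reads, was within the sham range. By edgeR the circle's log2 fold change was -2.12 ± 0.87 (SE, adjusted p = 0.0777), and without the shallow libraries it fell by 3.19 ± 0.47 (SE, adjusted p = 0.000336). The circle also passed with only TAC replicate 2 or only sham replicate 2 left out (adjusted p = 0.00185 and 0.0289). The host sum fell by 2.33 ± 0.70 (SE, adjusted p = 0.0221), a call lost without TAC replicate 1, 3 or 4 or sham replicate 3 or 4 (adjusted p of 0.115 to 0.402). With the length trend of each library removed, the circle's edgeR fold change was -0.06. The gene 9330162G02Rik lies on the opposite strand there.

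Without Ube3a the HECT sum was 79.3 ± 18.1 in sham and 93.9 ± 45.8 in TAC (SD, n = 4 each), against 157 ± 53.1 and 119 ± 22.3 with it. Over the 6 deep libraries the sum without Ube3a was 75.5 ± 20 in sham and 116 ± 18.2 in TAC (SD, n = 3 each), a log2 ratio of 0.61, against -0.32 with it. As shares of the reads, the deep libraries without Ube3a overlapped, at 0.368% to 0.496% in sham and 0.437% to 0.540% in TAC. Nedd4, a HECT ligase with WW domains that bind its targets, had 27 circles, and exon 2 opened 9 of them, which held 248 of the 299 reads placed on its exons. Host sums of Nedd4 were 14.8, 27.3, 32.3 and 26.3 in sham and 23.1, 5.77, 18.5 and 20.4 in TAC, which overlap (edgeR log2 fold change -0.80 ± 0.62, SE, adjusted p = 0.464).

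Rnf169, a RING protein that binds ubiquitinated chromatin at DNA breaks, had the most abundant circle of all ubiquitin hosts. Exons 2 to 4, 340 coding nucleotides over codons 155 to 268 of 694, gave 1113 of the host's 1124 reads. It had 59.2, 72.7, 72.0 and 111 normalised reads in sham and 57.3, 28.9, 90.6 and 72.5 in TAC. The groups overlapped, with an edgeR log2 fold change of -0.51 ± 0.80 (SE, adjusted p = 0.729). Rnf114 showed the same overlap for exons 4 to 6, at 9.86 to 19.0 in sham and 10.4 to 28.9 in TAC. Rnf2, the catalytic subunit of Polycomb complex PRC1, had a circle of exons 2 to 4 with 9.10, 13.6, 6.62 and 8.37 normalised reads in sham and 2.97, 0, 3.09 and 5.72 in TAC. No library of one group reached the other, yet the edgeR log2 fold change of -1.47 ± 0.76 did not pass (SE, adjusted p = 0.183), and it was -2.17 (adjusted p = 0.0438) with the length trend removed.

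Rnf214 was the only ubiquitin host that edgeR called higher in TAC with all libraries. Its 8 circles together had 4, 2, 2 and 0 reads in sham and 27, 0, 18 and 29 in TAC, or 1.52, 9.09, 1.66 and 0 against 20.1, 0, 18.5 and 18.4 normalised reads. The deep libraries were far apart, and the shallow sham library with 2 reads lay between them. By edgeR the host sum rose by 3.34 ± 0.77 (SE, adjusted p = 0.00163), and by 4.17 without the shallow libraries (adjusted p = 0.000997). It passed in 7 of the 8 fits that left 1 library out, the exception being without sham replicate 4 (adjusted p = 0.0509). Its main circles were exons 4 to 6 (341 nt), with 4, 2, 0 and 0 reads in sham and 7, 0, 10 and 10 in TAC, and exons 3 to 6 (387 nt), with 0, 0, 1 and 0 against 10, 0, 3 and 14. Rnf111 (Arkadia), a ligase of TGF-beta signalling, had host sums of 2.65, 18.2, 0 and 2.14 in sham and 8.92, 0, 12.4 and 12.1 in TAC, and did not pass with all libraries (edgeR adjusted p = 0.184). It passed without both shallow libraries (log2 fold change 2.16, adjusted p = 0.0215) or without sham replicate 2 alone (adjusted p = 0.0332).

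Among Trim ligases, Trim24, a chromatin reader and ligase of p53, fell by 2.01 ± 0.65 by edgeR on its host sum (SE, adjusted p = 0.0321). The sums were 9.86, 4.54, 19.9 and 23.3 in sham and 9.67, 0, 3.09 and 4.45 in TAC, and TAC replicate 1 overlapped the sham range. The call was lost when sham replicate 3 or 4 or any TAC library was left out (adjusted p of 0.0662 to 0.402). The most read circle of Trim24, exons 6 to 7 and 262 nt, held 70 of the 194 reads placed on its exons. It had 8, 0, 11 and 50 reads in sham and 0, 0, 0 and 1 in TAC. How much of the fall in the host sum it carried was not tested. Trim33, a relative of Trim24 that acts on Smad4, had a circle of exons 2 to 4 read in all libraries at 5.80 to 13.6 in sham and 5.77 to 9.67 in TAC, with no difference beyond the spread (edgeR log2 fold change -0.26 ± 0.72, SE, adjusted p = 0.850).

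F-box proteins are the substrate receptors of cullin ligases. Fbxw4 led them with 2 circles that start at the same exon. Exons 2 to 5, 510 nt, had 15.5, 4.54, 14.1 and 14.4 normalised reads in sham and 48.3, 0, 34.0 and 40.7 in TAC. Exons 2 to 4, 415 nt, had 11.4, 0, 23.2 and 11.9 in sham and 9.67, 11.5, 18.5 and 11.4 in TAC. The longer circle was higher in the 3 deep TAC libraries than in any sham library, while the shorter one overlapped. For the longer one, edgeR gave 1.05 ± 0.75 with all libraries (SE, adjusted p = 0.367), and 1.27 ± 0.38 without the shallow ones (SE, adjusted p = 0.0201). Fbxw8 (exons 6 to 7) had 7.0 to 10.8 in sham and 7.0 to 13.4 in TAC. Cul1, the scaffold that F-box proteins dock on, had host sums of 9.10, 0, 9.11 and 19.3 in sham and 8.18, 0, 6.18 and 1.91 in TAC, and did not pass with all libraries (edgeR adjusted p = 0.0977). It passed without both shallow libraries (log2 fold change -1.65, adjusted p = 0.0302) or without sham replicate 2 alone (adjusted p = 0.0223). Cul5, with 13 circles and 27 reads, had the most circles of a cullin host. The 15 F-box hosts that limma tested had a median log2 fold change of 0.33, the 13 HECT hosts 0.12, the 19 Rnf hosts -0.35, the 7 Trim hosts -0.14, the 6 Ubr hosts -0.81 and the 5 cullin hosts 0.50, against 0.13 for all hosts tested. Without the shallow libraries these medians were 0.45 for F-box, 0.82 for HECT, 0.63 for Rnf, 0.34 for Trim, 0.37 for Ubr and 1.06 for cullin hosts, against 0.61 for all hosts, so the Rnf, Trim and Ubr medians changed sign.

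Ubr3 of the Ubr family had 21 circles, of which the most abundant, exons 24 to 27 and 484 nt, had 1.14, 18.2, 0 and 3.70 normalised reads in sham and 8.92, 0, 14.4 and 13.4 in TAC. A second circle of Ubr3, exons 2 to 5 and 490 nt, had 12.9, 9.09, 4.14 and 8.37 in sham and 5.95, 0, 4.12 and 8.90 in TAC. The 2 circles are alike in length, and their edgeR log2 fold changes were 1.6 ± 0.76 (SE, adjusted p = 0.140) and -0.83 ± 0.72 (SE, adjusted p = 0.468). The difference between the 2 circles was not tested. Without the shallow libraries the first rose by 2.40 (adjusted p = 0.0142) and the second did not pass (-0.66, adjusted p = 0.377). Ube4b, a U-box ligase that lengthens ubiquitin chains, had host sums of 3.31 to 13.6 in sham and 0 to 12.4 in TAC.

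Among deubiquitinases, Usp14, which acts on the proteasome itself, had host sums of 6.07, 22.7, 3.31 and 17.9 in sham and 0, 11.5, 0 and 4.45 in TAC. By edgeR it fell by 2.58 ± 0.75 (SE, adjusted p = 0.0173). TAC replicates 2 and 4 overlapped the sham range. The call was lost without sham replicate 4 or TAC replicate 1, 3 or 4 (adjusted p of 0.0687 to 0.388). Its circles differed between libraries: exons 4 to 6, 268 nt, had 10, 0, 4 and 57 reads in sham and 0, 0, 0 and 1 in TAC, while the 5 reads of sham replicate 2 were all of exons 9 to 14 and the 2 reads of TAC replicate 2 all of exons 4 to 7. Usp3, which removes ubiquitin from histones, had a circle of exons 2 to 7, 556 nt, at 8.34, 4.54, 15.7 and 19.5 in sham and 38.7, 0, 30.9 and 31.8 in TAC. All 3 deep TAC libraries exceeded the sham libraries, and the edgeR log2 fold change was 0.81 ± 0.75 (SE, adjusted p = 0.506) with all and 1.04 ± 0.41 (SE, adjusted p = 0.0635) with the deep libraries.

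Usp13 had the most circles of any ubiquitin host, 29, with 154 reads among them. They began at 15 exons and ended at 10 of its 21, and exon 19 closed 7 of them. The most read, exons 5 to 6 and 328 nt, had 14, 0, 0 and 0 reads in sham and 6, 0, 5 and 11 in TAC. Host sums were 11, 9.09, 1.66 and 7.0 in sham and 28.3, 0, 19.6 and 17.8 in TAC, so the deep TAC libraries were higher, with an edgeR log2 fold change of 0.98 ± 0.61 (SE, adjusted p = 0.322).

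**Figure D3:**
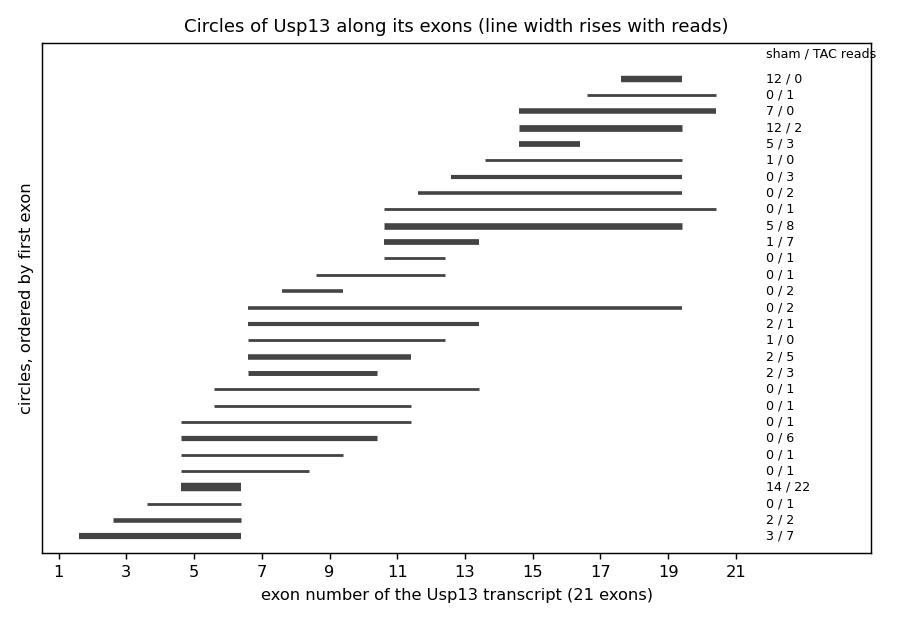
Circles of Usp13 drawn from their first to their last exon (horizontal axis, exon number of the 21-exon transcript), 1 line per circle, with summed reads of the sham and TAC libraries at the right; line width rises with the reads. The 29 circles cover exons 2 to 20, and exons 5 to 6 have the most reads (14 in sham and 22 in TAC).

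Fold changes of ubiquitin circles followed their length, as those of the whole table did. By limma the median log2 fold change was -1.30 for the 18 tested circles under 300 nt, 0.02 for the 83 of 300 to under 600 nt, 0.93 for the 18 of 600 to under 1000 nt and 1.47 for the 4 of 1000 nt or more. The medians over all circles tested were -0.83, 0.04, 0.88 and 1.36 in the same order. Without the shallow libraries they were -1.14, 0.53, 1.45 and 2.10 for ubiquitin circles and -1.04, 0.31, 1.66 and 2.28 for all circles. Circles under 300 nt held 19.5%, 14.8%, 27.2% and 29.0% of the ubiquitin circle reads in sham and 5.93%, 30.4%, 4.88% and 8.66% in TAC. Of the circles named above, those of Ube3a, Trim24 (exons 6 to 7), Usp14 (exons 4 to 6) and Ube2g2 are under 300 nt. An edgeR fit whose offset holds each library's length trend, added once the data had been seen, passed 2 of the 26 circles, Ube2d2a (-2.48, adjusted p = 0.0438) and Rnf2, against 2.23% of all circles tested.

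**Figure D4:**
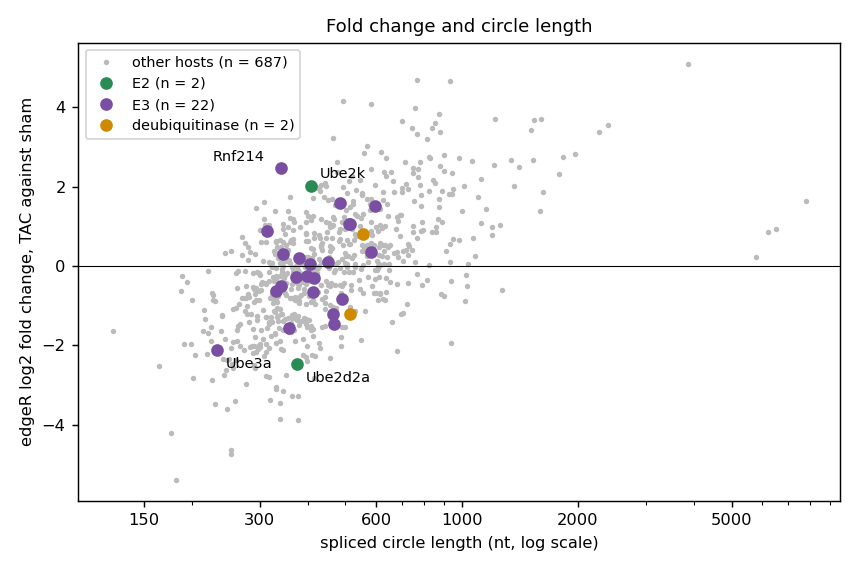
edgeR log2 fold change of TAC against sham (vertical axis) by spliced circle length in nt (horizontal axis, log scale), for circles of E2 (green), E3 (purple) and deubiquitinase (orange) hosts over those of other hosts (grey), all 8 libraries. Short circles lie mostly below 0 and long ones above; Ube2d2a (-2.48), Ube2k (2.03) and Rnf214 (2.47) are far from 0 at 341 to 406 nt.

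Several hosts gave 2 circles, a longer and a shorter, whose ratio needs no scaling between libraries. Such a ratio still carries the trend of fold change with circle length described above, and the part of that trend in it was not tested. For Fbxw4 the longer circle (exons 2 to 5) held 57.7%, 100% (of 1 read), 37.8% and 54.8% of the reads of both in sham and 83.3%, 0% (of 2 reads), 64.7% and 78.0% in TAC. The 3 deep TAC libraries were above the 3 deep sham libraries. For Ube2k, exons 2 to 5 held 58.3%, 100% (of 7 reads), 100% (of 1 read) and 33.3% against exons 2 to 3 in sham, and 100%, 96.3% and 97.8% in the 3 TAC libraries with reads. For Trim24, exons 2 to 7 held 33.3%, 21.4% and 35.1% against exons 6 to 7 in the 3 deep sham libraries and 100% (of 4 reads), 100% (of 1 read) and 66.7% (of 3 reads) in the 3 deep TAC libraries. Rnf114, with exons 4 to 6 (373 nt) and 5 to 7 (330 nt), overlapped at 53.1% to 100% in sham and 60.9% to 100% in TAC. For Ube2d2a, exons 2 to 6 (374 nt) held 96.1% to 100% against exons 2 to 5 (280 nt) in sham and 95.2% to 100% in the 3 TAC libraries with reads, which overlap. For Rnf214, exons 3 to 6 held 0% (of 4 reads), 0% (of 2 reads) and 100% (of 1 read) against exons 4 to 6 in sham replicates 1 to 3. In the 3 TAC libraries with reads they held 58.8%, 23.1% and 58.3%, within the sham range. In Fbxw4 and Trim24 the longer circle had a larger share in each deep TAC library than in any deep sham library, and in Ube2k than in sham replicates 1 and 4. These hosts were chosen after their values were seen.

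**Figure D5:**
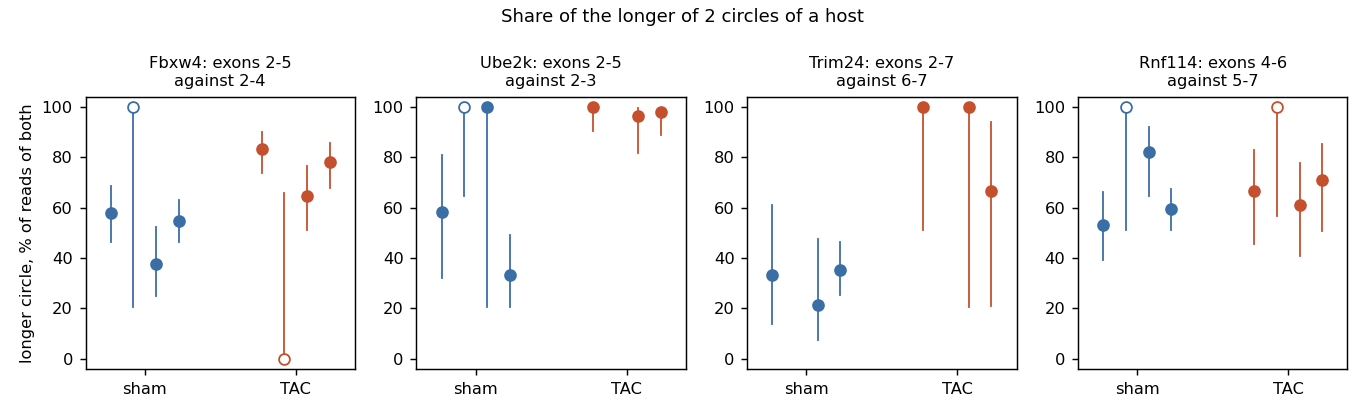
Share of the longer circle among the reads of 2 circles of a host (vertical axis, percent) in each sham (blue) and TAC (red) library with reads, with 95% Wilson intervals for counting error; open points mark the libraries under 5000 reads. Fbxw4 goes from 37.8% to 57.7% in deep sham libraries to 64.7% to 83.3% in deep TAC libraries, and Rnf114 overlaps.

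Of 31 ubiquitin genes known from work on heart muscle, 23 had a circle and 13 could be tested as hosts by limma, where 0 passed. Their median log2 fold change was -0.94 (11 of 13 below 0), against 0.13 for all hosts tested (1335 of 2967 below 0). Without the shallow libraries the median was -0.18 (7 of 13 below 0), against 0.61 (930 of 2881 below 0). There 2 passed, Usp14 and Ube3a, both lower, where 2.57% of all hosts were called lower. By edgeR with all libraries 7 were tested and 2 passed, Usp14 and Ube3a, both lower, where 4.9% of all hosts were called lower. The muscle ligases were barely seen as circles. Trim63 had 3 circles with 10 reads, Trim55 (MuRF2) 2 circles with 17 reads, and Fbxo32 3 circles with 31 reads, of which 24 were in sham replicate 4. Fbxw7, Cul3, Nedd4l and Usp4, with 21 to 52 reads each, did not pass by limma. Of the further genes of the pathway outside the name pattern (E1 enzymes, cullin partners, other deubiquitinases, other HECT, RBR and RING ligases, and proteasome or p97 genes), 167 had circles. Limma tested 89 of these hosts and passed 0, with a median of -0.08. Without the shallow libraries limma passed 8 of 86, all higher, with a median of 0.36. Over all hosts that fit passed 12.4% (9.82% higher), with a median of 0.61. By edgeR without the shallow libraries 48 were tested. Of these, 7 passed higher and 3 lower, against 10.9% and 10.7% of all hosts. By edgeR with all libraries 37 were tested and 1 passed, against 8.24% of all hosts. This was Shprh, a RING ligase of replication-stress tolerance, whose host sum fell by 2.23 ± 0.75 (SE, adjusted p = 0.0375). Shprh sums were 4.93, 9.09, 3.31 and 10.3 in sham and 1.49, 0, 0 and 3.82 in TAC. The E1 list also held enzymes of ubiquitin-like proteins. Its 4 tested hosts, Uba2, Uba3, Uba6 and Nae1, all had limma values below 0 (median -1.33) and none passed. Of these, only Uba6 activates ubiquitin itself.

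As a check of the tissue, 12 of 14 cardiomyocyte markers had circles, with summed levels of 190 to 850 normalised reads in sham and 289 to 1733 in TAC, and by edgeR 1 of 8 tested passed (Slc8a1, higher). Without the shallow libraries, where most calls of ubiquitin circles and hosts were made, 3 of 8 passed, all higher, where 10.9% of all hosts were called higher. These were Ttn, Slc8a1 and Myh6, with log2 fold changes of 2.05, 3.80 and 1.98. The other tested markers did not pass: Tnnt2 (1.61), Ryr2 (0.71), Mlip (0.38), Myom1 (-0.02) and Mybpc3 (-0.94). Fibroblast markers (5 of 8 with circles) summed to 1.66 to 4.54 in sham and 0 to 1.49 in TAC, with Tcf21, Postn and Fn1 not among the hosts. Endothelial markers (8 of 8) summed to 24.8 to 45.4 and 5.77 to 55.3, with 1 of 4 passing by edgeR (Npr3, lower). By edgeR without the shallow libraries Npr3 was lower (log2 fold change -2.14, adjusted p = 0.00339) and Pecam1 higher (1.52, adjusted p = 0.0486). Leukocyte markers (4 of 8) summed to 7.58 to 19.0 and 11.6 to 24.2. Smooth muscle and pericyte markers (3 of 6), erythroid (2 of 6) and adipocyte or neural markers (1 of 5) stayed at 5.77 or below in every library. The part of cell composition in the ubiquitin circle values was not tested.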

How the data were processed

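Back-spliced reads of circles were measured in hearts of 4 sham and 4 TAC mice. The unit of the deposited table is a signal: the authors scaled the reads of every circle by a library-wide size factor, which follows from the values, since all of them were whole multiples of the smallest in their library within 0.001. Per the submitters' processing notes, HISAT2, StringTie, DESeq2 and mm10 were used, without roles. The circRNA caller, strand and handling of reads with several matches are unknown here.

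Host sums add the values of all circles of a gene. The main test was limma 3.58.1 with an intensity trend (R 4.3.3) on log2(value + 0.195) for features above 0 in at least 4 libraries, over the whole table, with Benjamini-Hochberg adjustment at 0.05; its SE follows the trend over all features. Whole reads were recovered for 100% of values and tested with edgeR 4.0.16 (quasi-likelihood, TMM, minimum count 5, minimum total 15) and DESeq2 1.42.0 as alternatives. Shares carry 95% Wilson intervals for counting error, since reads carry no molecular identifiers here. Exons and lengths come from GENCODE M21, which matched 96.9% of the ubiquitin circles. Ube3 hosts and Ube2cbp (Ube3d) were classed as HECT and Ube4b as U-box. Named circles and hosts were those past 0.05 in limma or edgeR, the 10 largest means, the smallest edgeR p per direction, the leading hosts of each family and tested genes of the heart list; those named beyond this were chosen after their values were seen. The members and lists were chosen with earlier results of these data known. Some circles and hosts that this rule names are not reported here. Replicates are separate mice numbered in accession order. Alternatives were other tests, pseudocounts, filters and scalings, and fits without each library.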

Additional observations from a re-analysis of the deposited data

Results flagged for a closer look

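In 11 of 54 groups of 4 libraries tested, 1 library lay further from the others than Dixon's 95% critical value for 4 samples allows. For independent normal values chance gives about 1 in 20. Class sums, host sums and circles of the same hosts share reads, so 11 of 54 cannot be set against that rate. All 11 concern the 2 libraries under 5000 reads. TAC replicate 2 had a summed level of 266 normalised reads for all ubiquitin circles (679 to 758 in the other TAC libraries) and 214 for E3 circles (515 to 558). Its total of normalised reads over the whole table was also the lowest. As shares of its own reads it was the highest TAC library, with 4.11% for all ubiquitin circles (3.08% to 3.29% in the others) and 3.31% for E3 circles (2.27% to 2.38%). For host sums it had 69.3 for Ube3a (6.18 to 14.0 in the others), 0 for Rnf214 (18.4 to 20.1), 11.5 for Fbxw4 (54.1 to 60.2), 0 for Usp3 (34.0 to 40.9) and 0 for Ube2k (27.5 to 31.8). For single circles it had 69.3 for Ube3a exons 2 to 4 (6.18 to 13.4) and 0 for Ube2k exons 2 to 5 (26.8 to 28.6). Sham replicate 2 had 4.54 for Fbxw4 exons 2 to 5 (14.1 to 15.5 in the other sham libraries) and 31.8 for Ube2k exons 2 to 5 (0.828 to 2.65). The 12 Ube3a reads of TAC replicate 2 put it in the range of the deep sham libraries, while the Ube2k circle, with 7 reads in sham replicate 2, was above all TAC libraries there and below all sham libraries in TAC replicate 2. The cause was not tested.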

How the results depend on the processing

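No paired analysis was possible because the labels give no replicate numbers that pair sham with TAC mice. The limma count of ubiquitin circles past the threshold, 0, became 1 with edgeR, 1 with DESeq2, 2 with the length offset in edgeR and 8 with voom quality weights, and with the 2 shallow libraries left out it was 16 by limma and 11 by edgeR. The count of hosts, 0, became 5 with edgeR, 1 with DESeq2 and 10 with voom, and without the shallow libraries 12 by limma and 10 by edgeR. Leaving out 1 library gave 0 to 10 circles and 0 to 10 hosts, with 10 of each by edgeR without sham replicate 2 and 0 hosts by edgeR without sham replicate 4. The length offset and voom were added after the data were seen.

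Of 29 circles and hosts followed, 13 kept their direction in every alternative run. Those that turned (log2 fold changes) were Usp3 exons 2 to 7, -0.19, to 0.81, 1.08, 1.28, 1.04 and 0.88 with edgeR, DESeq2, limma and edgeR without shallow libraries, and voom, and 0.31 with a pseudocount of 1; Fbxw4 exons 2 to 5, -0.06, to 1.05, 1.34, 1.46, 1.27, 0.94 and 0.30 in these settings and with the length offset, and 0.44 with a pseudocount of 1; and Fbxw4 exons 2 to 4, 1.33, to -0.30 (edgeR), -0.20 and -0.40 (without shallow libraries), -0.28 (voom) and -0.47 (offset). Smaller turns were Rnf114 to 0.010 and 0.029 with the length trend removed in limma and edgeR, Fbxl17 to -0.49 in the former, Fbxw8 to -0.11 (voom) and -0.067 (offset), Rnf169 to 0.13 (offset), and the host Usp13 to -0.14 with TMM scaling. Leaving out 1 library also turned some: ranges were -0.43 to 1.37 for Fbxl17, -1.98 to 0.33 for Fbxo8, -0.49 to 2.07 for Fbxw4 exons 2 to 4, -0.79 to 1.87 for exons 2 to 5, -0.18 to 0.49 for Fbxw8, -2.34 to 0.13 for Nedd4 exons 2 to 5, -0.52 to 0.13 for Rnf114, -0.077 to 2.55 for Ubr3 exons 24 to 27, -0.88 to 1.67 for Usp3 and -1.93 to 0.56 for Usp32 exons 2 to 5; for hosts, -2.46 to 0.18 for Cul1, -2.11 to 0.24 for Fbxo8, -0.29 to 2.34 for Rnf111, -0.41 to 2.26 for Ube2k and -0.57 to 1.83 for Usp13. The log2 ratio of the E2 sum, -1.02, was 0.07 without the Ube2d2a circle and -0.63 without the shallow libraries; the E3 ratio, -0.13, was 0.14 without the shallow libraries, and the deubiquitinase ratio, 0.17, was -0.01 without the Usp3 circle. Depth limits values in the shallow libraries, where 1 read is worth 4.54 (sham replicate 2) and 5.77 (TAC replicate 2) normalised reads.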
